A study of Bos taurus with 12 samples.

Results

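The fatty acid desaturases and elongases were examined in mammary gland biopsies of lactating Holstein cows before and during feed restriction. The group was named as 9 genes: the desaturases SCD, SCD5, FADS1 and FADS2, the elongases ELOVL1, ELOVL5, ELOVL6 and ELOVL7, and HSD17B12, a reductase of the elongation cycle. Members were found on the array through the RefSeq transcript that the scanner files give for each probe, and every matching probe was kept. By this rule 8 of the 9 genes had a probe, 29 probes in all, of 43653 probes and 12787 named genes on the array. No probe carried a FADS1 transcript, so FADS1 was not analysed here.

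The study compared a control period (CONT, day 0), in which the midlactation cows ate a lactation diet ad libitum, with a restriction period (REST, day 6), in which feed was cut to cover 50% of the net energy required for lactation. Each cow was biopsied in the udder in both periods, and each RNA sample was labelled with Cy3 and hybridised to its own array, which gave 6 CONT and 6 REST arrays. The labels name 6 cows, numbered here from 1 to 6, whereas the series description counts 5. The study's methods state that a Holstein cow was removed because of mastitis, and the labels do not say whether its arrays are among these. The fit was also run without each cow in turn. Every REST biopsy was taken 6 days after the CONT biopsy of the cow, so diet and time cannot be told apart. The biopsy is whole tissue, in which fewer cells of a type and less RNA per cell cannot be told apart either.

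Desaturases insert a double bond into a fatty acid that is already bound to coenzyme A, using electrons that cytochrome b5 and its reductase pass to them. SCD converts stearate to oleate and palmitate to palmitoleate, and in the lactating udder it is known as the enzyme that supplies much of the oleate and of the rumenic acid of milk fat. FADS1 and FADS2 act instead on polyunsaturated chains and work alternately with the elongases. Elongation lengthens a chain in a cycle of condensation, reduction, dehydration and a last reduction, in which an ELOVL protein carries out the condensation and HSD17B12 the reduction that follows it.

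The arrays lay on 3 slides of 4, and a slide held the CONT and REST arrays of 2 cows: slide 1 those of cows 1 and 2, slide 2 those of cows 3 and 4, and slide 3 those of cows 5 and 6. Slide 3 was dimmer, with 75th percentiles of 73.1 to 117 intensity units against 252 to 390 on the others, and with 41.9 to 48.0% of spots well above background against 61.8 to 67.9%. Signals below are log2 intensities relative to the 75th percentile of their array, and a change is REST minus CONT of the same cow. Before this shift, the REST array of a cow had the higher 75th percentile in 6 of 6 cows, so every change is relative to the array as a whole. Signals have no common scale between probes, so no gene is ranked against another by its signal. A probe entered the test if it lay well above background, as the scanner software judged it, on all arrays of at least 1 period, and was called when its Benjamini-Hochberg adjusted p over all 19406 tested probes was under 0.1 in a limma fit with the cow as a block.

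Of the 29 probes, 19 from 7 genes were tested, and all 19 were well above background on all 12 arrays. In REST, 11 of these 19 probes were called lower and 0 higher. The called probes belonged to SCD, FADS2, ELOVL1 and HSD17B12. The share of called probes was 57.9% among the members, where 16% of all tested probes were called in either direction and 8.78% were called lower. Of the 19, 13 had an unadjusted p under 0.05, all lower in REST, where 27.6% of all tested probes had such a p and 14.5% had it and were lower. The 7 probes of SCD share a transcript, so these shares do not count independent measurements. Counted once per gene, with the tested probe of highest mean signal, 3 of 7 members were called lower, where 9.27% of 7932 tested genes were, and 0 were called higher, where 6.95% were. The median change of the 19 probes was -0.41 and that of all tested probes 0.00. Without the cow as a block, 6 member probes of SCD, FADS2 and HSD17B12 were called (31.6%), where 4.33% of all tested probes were.

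**Figure D1:**
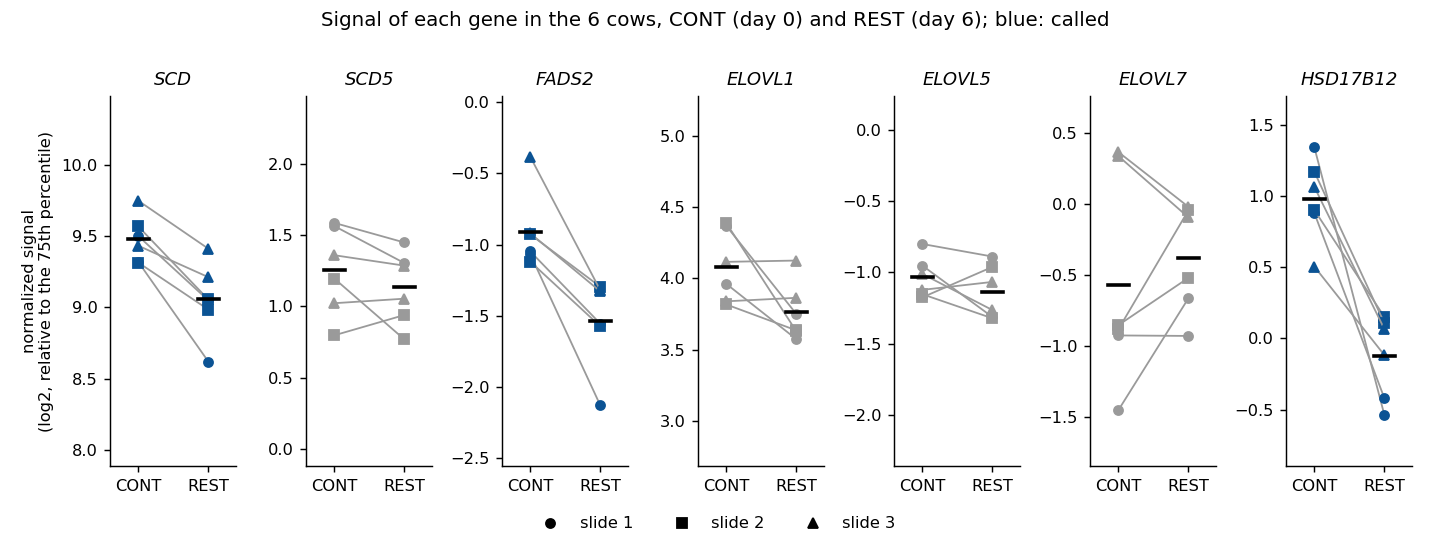
Normalized signal (y axis, log2 relative to the 75th percentile of the array) of the tested probe of highest mean signal for each of 7 genes, in CONT and REST (x axis); lines join the arrays of a cow, marker shapes give the slide, black bars are means of 6 cows, and each panel spans the same range. SCD, FADS2 and HSD17B12 (blue, called) were lower in REST in 6 of 6 cows, while the lines of ELOVL7 ran upward or level on slides 1 and 2 and downward on slide 3.

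The desaturase SCD was lower in REST with all 7 of its probes (NM_173959), by 0.33 to 0.98 on the log2 scale, with standard errors of 0.09 to 0.22 and limma adjusted p between 0.0258 and 0.0612. On the probe that stands for the gene, A_73_106141, the CONT signals ran from 9.31 through a median of 9.47 to 9.75 and the REST signals from 8.62 through 9.05 to 9.41. The periods therefore overlapped on this probe across cows, although each cow was lower in REST than in CONT. The change was -0.43 ± 0.09 (SE, n = 6 cows; limma adjusted p = 0.0258), a signal 25.6% lower, and it lay between -0.70 in cow 2 and -0.22 in cow 5. Without the cow as a block its adjusted p was 0.111, and 3 of the 7 probes were called.

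The size of the SCD change differed between probes of the transcript. Probe A_73_P101286 changed most, by -0.98 ± 0.22 (limma adjusted p = 0.0359), from CONT signals of 4.70 to 5.57 (median 5.29) to REST signals of 3.33 to 4.94 (median 4.39). Probe A_73_P287219 changed least, by -0.33 ± 0.09 (limma adjusted p = 0.0612), from 9.19 to 9.50 (median 9.35) to 8.54 to 9.31 (median 9.01). The other 4 changed by -0.51 on A_73_P252739, -0.58 on A_73_P285671, -0.60 on A_73_P251036 and -0.68 on A_73_P103801. On A_73_P252739 and A_73_P285671 every CONT array lay above every REST array.

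Cow 5 was the exception among the cows. Its 7 SCD probes changed by a median of -0.05, from -0.22 to 0.24, and A_73_P103801 and A_73_P101286 were higher in REST in this cow alone. In cows 1, 2, 3, 4 and 6 the medians were -0.95, -0.85, -0.45, -0.59 and -0.34. Over all tested probes the median absolute change was 0.25 in cow 5. It was 0.25, 0.26, 0.19, 0.23 and 0.21 in cows 1, 2, 3, 4 and 6. Over the called probes alone it was 0.38 in cow 5. In cows 1, 2 and 4 this value was higher (0.47, 0.52 and 0.47), and in cows 3 and 6 it was lower (0.33 and 0.34). By slide, the change of A_73_106141 was -0.58 on slide 1, -0.42 on slide 2 and -0.28 on slide 3.

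The calls of 2 SCD probes depended on the normalization. A_73_106141 changed by -0.24 after quantile normalization (limma adjusted p = 0.140) and by -0.28 with a normexp background correction (limma adjusted p = 0.110). For A_73_P287219 the values were -0.14 (limma adjusted p = 0.379) and -0.21 (limma adjusted p = 0.180). The remaining 5 probes were called under both. The number of called SCD probes also depended on the cows and on the test: of 7, it was 4 without cow 1, 2 without cow 2 (limma adjusted p from 0.0810 to 0.169) and 4 without cow 4, 2 in a fit with neither the block nor moderation of the variance, and 0 when dim probes were not filtered out and all 43653 probes entered the adjustment (limma adjusted p from 0.123 to 0.176).

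**Figure D2:**
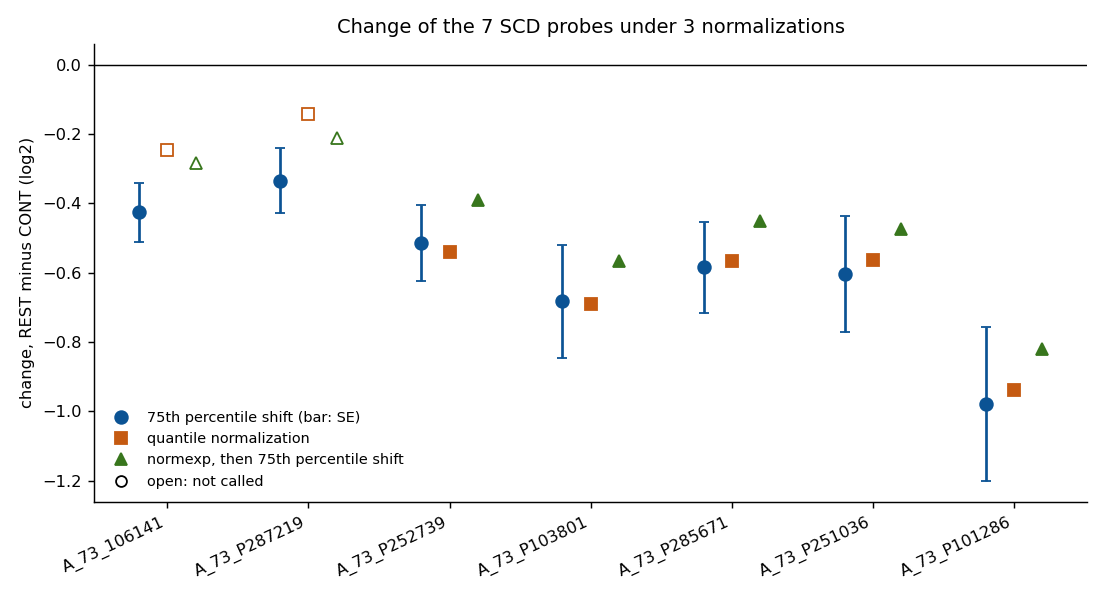
Change of each SCD probe (x axis, probe names) as REST minus CONT in log2 units (y axis) under 3 normalizations; circles carry the SE of the limma fit over 6 cows, filled symbols were called and open symbols were not. All changes are below 0, from -0.98 to -0.14, and the open symbols belong to A_73_106141 and A_73_P287219.

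SCD5, a second stearoyl-CoA desaturase coded by another gene, was not called. Its probe A_73_105656 (NM_001076945) had CONT signals of 0.80 to 1.59 (median 1.28) and REST signals of 0.77 to 1.45 (median 1.17). The 2 periods overlapped almost fully, and the change of -0.12 ± 0.09 (SE; limma adjusted p = 0.429) was below 0 in 4 of 6 cows. The other tested probe, A_73_P035826, changed by -0.03 ± 0.11 (limma adjusted p = 0.887), and the remaining one, A_73_106764, was well above background on no array (0 of 12).

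SCD was set against SCD5 within each cow, to ask whether the 2 desaturases changed by different amounts. The change of SCD minus that of SCD5 was -0.31 ± 0.16 (mean ± SD, n = 6), from -0.47 to -0.09, and was below 0 in 6 of 6 cows. The exact sign-flip test over cows gave p = 0.03125, two-sided, the smallest that 6 cows allow, and 0.0625 after adjustment over the 2 pairs that could be compared. This adjusted value is under 0.1, but it was 0.125 with the mean over all tested probes of each gene and 0.1875 with normexp in the same exact test. Of 5 pairs of related enzymes that had been listed, 3 contained FADS1 or ELOVL6 and had no value.

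FADS2, the desaturase that begins the conversion of linoleic and alpha-linolenic acid, was lower in REST. Its single probe, A_73_110505 (NM_001083444), had CONT signals of -1.12 to -0.38 (median -0.99) and REST signals of -2.13 to -1.30 (median -1.44). Every CONT array lay above every REST array. The change was -0.62 ± 0.11 (SE, n = 6 cows; limma adjusted p = 0.0202), a signal 35.1% lower, and ranged from -1.06 in cow 2 to -0.37 in cow 3. It was -0.79, -0.41 and -0.67 on slides 1 to 3, and the probe was also called without the cow as a block (limma adjusted p = 0.0683) and without any 1 of the cows. It was not called in a fit with neither the block nor moderation of the variance (Benjamini-Hochberg adjusted p = 0.105), nor when all 43653 probes entered the limma fit (adjusted p = 0.107).

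Next to FADS2 in the genome lies FADS3, a related desaturase that is not among the 9 members, in a cluster in which FADS1 is the neighbour on the other side. FADS3 was called lower too, by -0.62 ± 0.12 (SE; limma adjusted p = 0.0211), in 6 of 6 cows and from -1.06 to -0.22. FADS6 was not tested, since its best probe was well above background on 5 CONT and 4 REST arrays.

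Across the members, every CONT array exceeded every REST array on 5 of the 19 tested probes (26.3%), where 1.5% of all tested probes did so, and 9 probes (47.4%) were lower in all 6 cows, where 9.81% were. The 5 probes were 2 of SCD, that of FADS2 and 2 of HSD17B12.

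**Figure D3:**
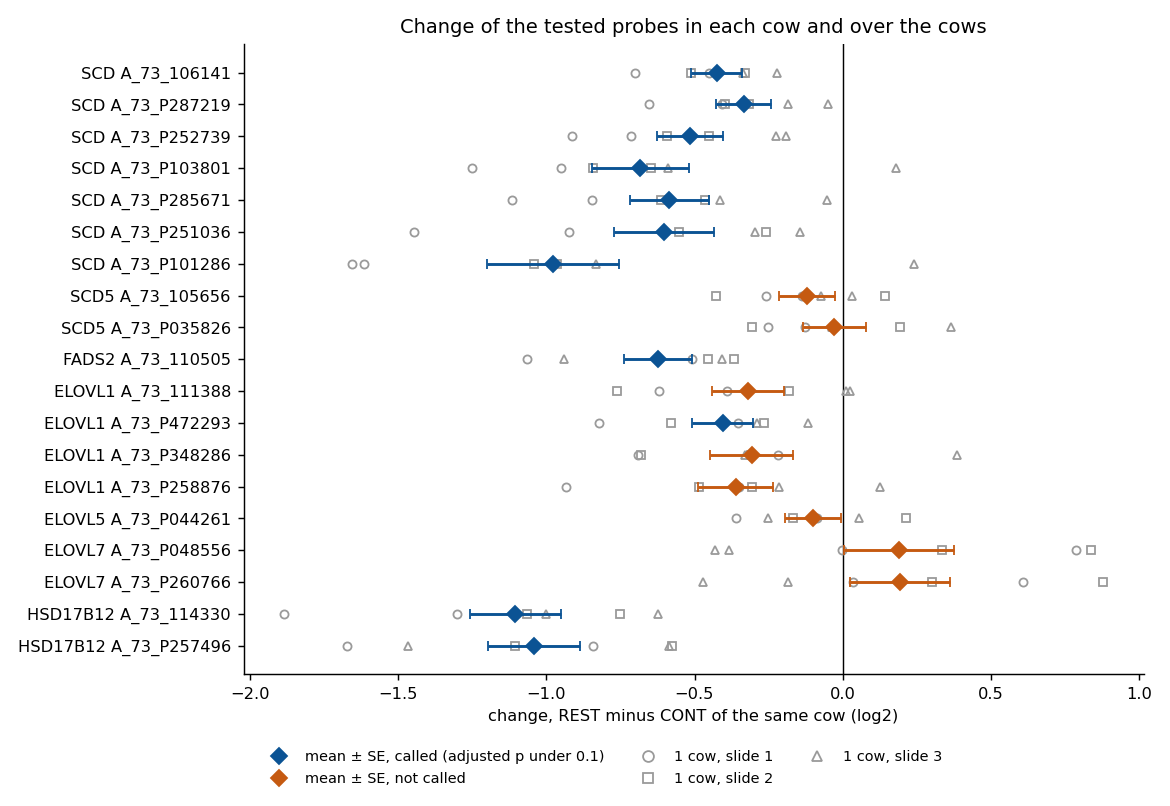
Change of each of the 19 tested probes, REST minus CONT of the same cow in log2 units (x axis), by gene and probe (y axis); open grey symbols are single cows with their slide, and diamonds are means of 6 cows with the SE of the limma fit, blue where called. HSD17B12 had the changes farthest below 0 (-1.10 and -1.04), and the 2 probes of ELOVL7 alone had means above 0.

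HSD17B12, the reductase that converts the product of every ELOVL enzyme, had the largest changes among the members in the fit used for the calls. On A_73_114330 (NM_001101307) the CONT signals ran from 0.51 through a median of 0.98 to 1.34 and the REST signals from -0.54 through -0.03 to 0.15. The periods did not overlap. The change was -1.10 ± 0.15 (SE, n = 6 cows; limma adjusted p = 0.00842), a signal 53.5% lower, from -1.88 in cow 1 to -0.62 in cow 5. On A_73_P257496 the signals went from -0.37 to 0.69 (median 0.15) in CONT to -1.58 to -0.41 (median -0.82) in REST, again without overlap, and the change was -1.04 ± 0.16 (limma adjusted p = 0.0104).

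Both HSD17B12 probes were called under every alternative that was tried, which held for the tested probes of no other member. They were called without the cow as a block (limma adjusted p = 0.00639 and 0.0223), and the changes with normexp were -0.89 and -0.74. With normexp, SCD probe A_73_P101286 changed by -0.82. Without cow 5 this SCD probe changed by -1.22, against -1.20 and -1.13 for HSD17B12. Without slide 3 it changed by -1.32, against -1.25 and -1.05. By slide, A_73_114330 changed by -1.59, -0.91 and -0.81. The other 2 probes did not enter the test, as they were well above background on 4 or 5 arrays of a period. A_73_P252711 was well above background on all 8 arrays of slides 1 and 2, and there its changes were -1.92, -1.14, -0.93 and -0.96 in cows 1 to 4. A_73_P253411 changed by -2.49, -1.25, -1.30 and -1.11 in those cows. When all 43653 probes entered the fit, A_73_P252711 was called lower (-1.17 ± 0.20, SE; limma adjusted p = 0.0849) and A_73_P253411 was not (-1.24 ± 0.29; limma adjusted p = 0.133).

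Among the elongases, ELOVL1, which extends saturated and monounsaturated chains of very long length, had 4 tested probes (NM_001034703) with changes between -0.41 and -0.31. Only A_73_P472293 was called. Its CONT signals were 0.21 to 1.03 (median 0.66) and its REST signals -0.08 to 0.72 (median 0.21), so the periods overlapped while 6 of 6 cows were lower. The change was -0.41 ± 0.10 (SE; limma adjusted p = 0.0492), and the adjusted p was 0.207 without the cow as a block and 0.175 with the slide as the block. The call was also lost without cow 1 (limma adjusted p = 0.109), cow 2 (0.121) or cow 4 (0.137), with all 43653 probes tested (0.160), and with neither block nor moderation (0.249). The probe that stands for the gene, A_73_111388, had signals of 3.82 to 4.39 (median 4.04) in CONT and 3.57 to 4.13 (median 3.69) in REST and a change of -0.32 ± 0.12 (limma adjusted p = 0.131). It was lower in 4 of 6 cows and level in cows 5 and 6, with a mean change of 0.02 on slide 3 against -0.50 and -0.47 on slides 1 and 2. The other 2 probes had limma adjusted p of 0.110 and 0.191. Without the arrays of slide 3, an exclusion chosen after the data had been seen, all 4 probes were called lower (limma adjusted p from 0.0504 to 0.0567).

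ELOVL7, an elongase of long saturated and polyunsaturated chains, was not called, and its cows divided by slide. On A_73_P048556 (NM_001078042) the CONT signals ran from -1.45 through a median of -0.87 to 0.36 and the REST signals from -0.93 through -0.31 to -0.02. The 2 highest CONT arrays were those of cows 5 and 6, on the dimmer slide. The mean change was 0.19 ± 0.18 (SE; limma adjusted p = 0.538), made up of 0.39 on slide 1, 0.58 on slide 2 and -0.41 on slide 3. A_73_P260766 behaved alike, with 0.19 ± 0.17 overall (limma adjusted p = 0.490) and 0.32, 0.59 and -0.33 by slide, although its mean change was -0.08 with normexp. Without slide 3, A_73_P048556 was called higher (0.49, limma adjusted p = 0.0966) and A_73_P260766 was not (0.45, limma adjusted p = 0.1004).

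Set against ELOVL7 within each cow, ELOVL1 changed by -0.51 ± 0.82 (mean ± SD, n = 6) relative to it, from -1.60 to 0.44, and the difference was below 0 in 4 of 6 cows. The exact sign-flip test, two-sided, gave p = 0.1875, which was also the value after adjustment over the 2 pairs.

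ELOVL5, which elongates the polyunsaturated products of FADS2, was not called. Its tested probe A_73_P044261 (NM_001046597) had signals of -1.18 to -0.80 (median -1.07) in CONT and -1.32 to -0.89 (median -1.17) in REST, and changed by -0.10 ± 0.09 (SE; limma adjusted p = 0.521), with 4 of 6 cows lower. FADS2 and ELOVL5 act in the same chain of reactions, yet the periods separated fully on the probe of the one and overlapped on that of the other. The difference between these 2 genes was not tested. A further ELOVL5 probe, A_73_111264, did not enter the test, and with all 43653 probes in the fit it was not called (limma adjusted p = 0.473).

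ELOVL6, which lengthens palmitate to stearate and so supplies the substrate of SCD, did not enter the test. None of its 5 probes (NM_001102155) was well above background on all arrays of a period. The best, A_73_119372, was well above background on the 8 arrays of slides 1 and 2 and on 0 of the 4 of slide 3. In cows 1 to 4 it changed by -0.49, -0.17, 0.06 and 0.06, so that the cows went in both directions. A_73_P404726 was well above background on 3 arrays of each period and A_73_P087236 on 3 of CONT and 2 of REST, and the other 2 probes on 0 of 12. When all 43653 probes entered the fit, none of the 5 was called (0 of 5; limma adjusted p from 0.254 to 0.767), and A_73_119372 changed by -0.15 ± 0.17 (SE; limma adjusted p = 0.622).

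In the lists below a gene was counted by the probe that stands for it, unless stated otherwise. Over all tested genes, 9.27% were called lower and 6.95% higher by such a probe. The other genes of elongation went in both directions. In a list of the other enzymes of the cycle and of further elongases and desaturases, 10 of 11 genes had a probe and 5 were tested; 2 were called lower, 1 higher, and the median change was 0.22, against -0.01 over all tested genes. TECR, which carries out the last reduction of the cycle, was lower by -0.50 ± 0.08 (SE; limma adjusted p = 0.0120) in 6 of 6 cows, with both of its probes. FADS3 was the other gene called lower. HACD3, from the family of dehydratases of the cycle, was higher by 0.36 ± 0.08 (limma adjusted p = 0.0377) in 6 of 6 cows, with 2 of 3 probes called and an adjusted p of 0.215 without the cow as a block. HACD2 (0.26, limma adjusted p = 0.138) and HACD4 (0.22, limma adjusted p = 0.318) were not called. ELOVL2 and ELOVL3 were well above background on no array, and ELOVL4 on 3 of each period.

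Genes of the electron supply went in both directions. Of 7 genes, 5 were tested, 1 was called lower and 1 higher, with a median change of -0.04. CYB5B, the outer mitochondrial form of cytochrome b5, was lower by -0.98 ± 0.17 (SE; limma adjusted p = 0.0175) in 6 of 6 cows. CYB5A, the form of the endoplasmic reticulum that serves the desaturases, was not called with any of its 4 probes (-0.04 ± 0.07 on the probe that stands for it, limma adjusted p = 0.759). CYB5R3, the reductase, was called higher with all 4 of its probes, by 0.30 ± 0.09 on the probe that stands for it (limma adjusted p = 0.0681), but its adjusted p was 0.350 without the cow as a block.

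Upstream of the members, the enzymes that activate acetate and begin synthesis of fatty acids were lower or not called. Of 9 genes, 5 were tested, 3 were called lower and 0 higher, and the median change was -0.39. ACSS2 and ACSS1, which bind acetate to coenzyme A, were lower by -1.60 ± 0.17 and -0.89 ± 0.10 (SE; limma adjusted p = 0.00460 and 0.00463), each in 6 of 6 cows. ACACA, which makes the malonyl-CoA used in synthesis and elongation alike, was lower by -0.39 ± 0.11 (limma adjusted p = 0.0599), with an adjusted p of 0.402 without the cow as a block. ACLY and ACACB were not called, ME1 was not tested, and FASN, OLAH and SLC25A1 had no probe by this match. ACACA, like ACSL1, LPIN1 and LPL below, is a gene the study itself had named from its own analysis of the same samples.

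Acyl-CoA synthetases deliver the substrates of desaturation and elongation. Of 13 genes, 7 were tested, with 1 called lower, 1 called higher and a median change of -0.31. Over all tested genes, 9.27% were called lower and 6.95% higher. Counted by any tested probe, 2 genes of this list were called lower and 1 higher. ACSL1 was lower by -0.38 ± 0.12 (SE; limma adjusted p = 0.0810) and SLC27A1 higher by 0.40 ± 0.12 (limma adjusted p = 0.0753), each in 5 of 6 cows. Both calls were lost without the cow as a block. Among genes that consume monounsaturated chains in glycerolipids and sterol esters, 11 of 17 were tested, with 3 called lower, 1 higher and a median of -0.19. LPIN1, a phosphatidate phosphatase, was lower by -1.88 ± 0.20 (limma adjusted p = 0.00463) in 6 of 6 cows. GPAT4 (-0.35), DGAT1 (-0.28) and AGPAT4 (0.40) were called with the cow as a block and not without it (limma adjusted p = 0.175, 0.319 and 0.380).

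SCD and FADS2 are known targets of the SREBP transcription factors, so genes of SREBP processing and other regulators were listed. Of 16 genes, 12 were tested, with 1 called lower, 1 higher and a median of -0.15. Over all tested genes, 9.27% were called lower and 6.95% higher. Counted by any tested probe, 1 gene of this list was called lower and 2 higher. INSIG1, which retains SREBP in the endoplasmic reticulum and is itself an SREBP target, was lower by -1.98 ± 0.27 (SE; limma adjusted p = 0.00774) in 6 of 6 cows, from -3.24 to -0.82. SREBF1 was not called, with a change of -0.09 ± 0.18 (limma adjusted p = 0.771), nor were SREBF2 (-0.24, limma adjusted p = 0.130), SCAP (-0.11, limma adjusted p = 0.507) and PPARG (-0.27, limma adjusted p = 0.248). NR1H3, the liver X receptor alpha, was higher by 0.40 ± 0.10 (limma adjusted p = 0.0484) in 5 of 6 cows.

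In the peroxisomal list, whose enzymes shorten long polyunsaturated chains, 10 of 12 genes were tested and the median was -0.09. With the probe that stands for the gene, 0 were called lower, where 9.27% of all tested genes were. By the same count 1 was called higher, SCP2 (0.35 ± 0.09, SE, limma adjusted p = 0.0425), where 6.95% of all tested genes were. SCP2 was called with 1 of its 2 probes. Counted by any tested probe, 1 gene of this list was called lower and 2 higher. In the list of sphingolipid desaturases and ceramide synthases, which receive very long chains, 8 of 9 were tested and 1 was called in each direction, DEGS2 (-0.31 ± 0.10; limma adjusted p = 0.0969) and SPTLC1 (0.41 ± 0.13; limma adjusted p = 0.0899), with a median of -0.14. Neither of these 2 was called without the cow as a block (limma adjusted p = 0.416 and 0.295). Counted by any tested probe, 1 gene of the sphingolipid list was called lower and 2 higher.

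**Figure D4:**
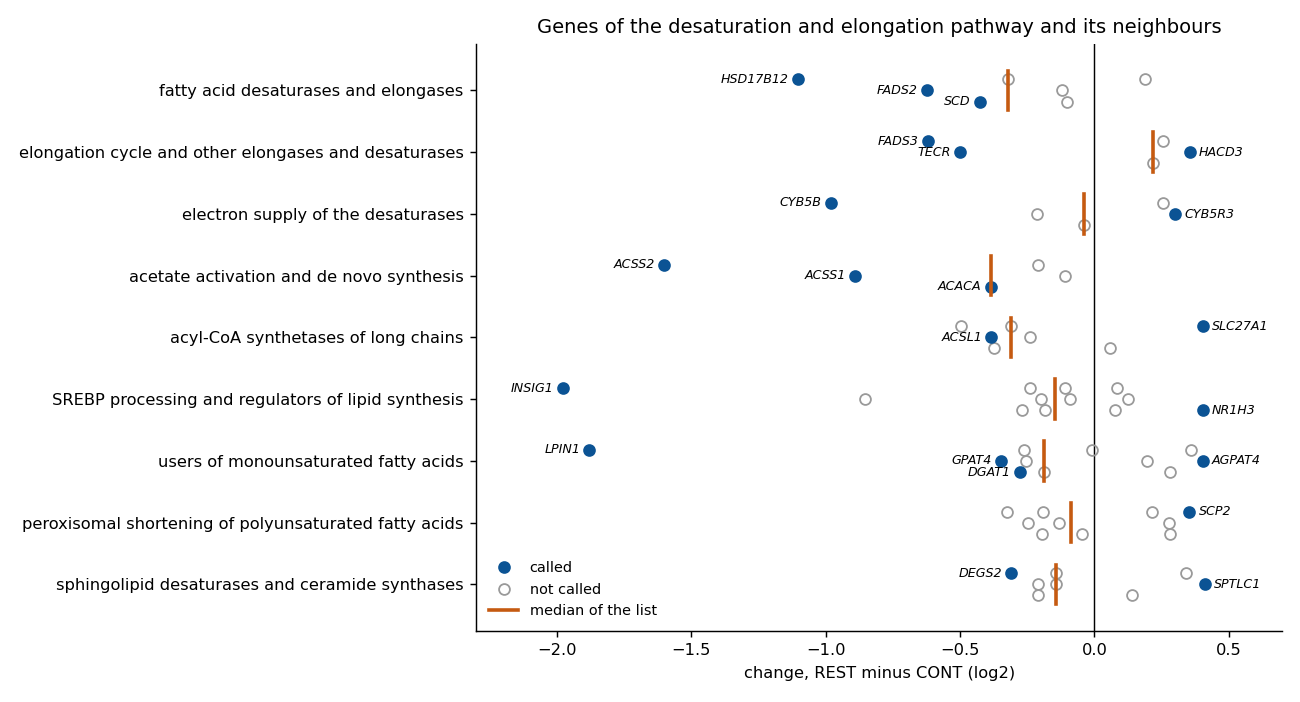
Change of each tested gene, REST minus CONT in log2 units (x axis), in the members and 8 lists of related genes (y axis), with the probe of highest mean signal; filled and named genes were called, and the orange line is the median of the list. The medians run from -0.39 for acetate activation and de novo synthesis to 0.22 for the other elongation cycle genes.

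The genes whose pattern was most like that of SCD were sought over the 12 arrays, after the mean of each cow was subtracted, among 7930 genes. Highest were ATP5ME (Pearson r = 0.998), GPX4 (0.995), LPL (0.994), ISOC2 (0.993) and ATP5MF (0.991). All 5 were lower in 6 of 6 cows, which follows from their selection, since SCD was lower in each cow on this probe. Their changes were -0.43, -0.91, -1.10, -0.51 and -0.42, and all 5 were called. Without the cow as a block ATP5MF was not called (limma adjusted p = 0.220), and the other 4 were. LPL releases fatty acids from circulating lipoproteins, GPX4 reduces lipid peroxides, and ATP5ME and ATP5MF are subunits of ATP synthase. The measure rests on 6 within-cow changes and is high for any gene that was lower by similar proportions in every cow, so it carries no p. Of the members, HSD17B12 stood at rank 150 (r = 0.948), FADS2 at 190 (0.939), ELOVL1 at 770 (0.837), SCD5 at 1523 (0.700), ELOVL5 at 2298 (0.536) and ELOVL7 at 6221 (-0.58).

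Markers of cell types were examined in the same arrays. Of 48 tested markers in 8 lists, 6 were called lower, 5 higher and 37 not (22.9% called), where 16.2% of all tested genes were called in either direction. Of the luminal epithelial list, to which milk-secreting cells belong, 10 of 12 genes were tested, among them the milk genes CSN3, LALBA, BTN1A1 and XDH, and CDH1 was not. KRT8 (0.72, limma adjusted p = 0.00897), KRT7 (0.53, limma adjusted p = 0.0598) and KRT18 (0.52, limma adjusted p = 0.0681) were called higher and CSN3 lower (-0.28, limma adjusted p = 0.0774). KRT8 was called with 2 of 3 probes, and the remaining probe changed by -0.14. CSN3 was called with 1 of 2 probes. LALBA also had 1 of 2 probes called lower, but not the probe that stands for the gene. The summed linear signal of this list, in units of the 75th percentile, was 2888 to 3785 in CONT and 2524 to 3379 in REST. The probes of LALBA, CSN3, BTN1A1 and XDH made up 91.0% of this sum, and since probes have no common scale, the sums given here describe mainly the brightest probes of a list and not the amount of a cell type. Of the adipocyte list 3 of 10 were tested: FABP4 (-0.35, limma adjusted p = 0.0448) and CIDEA (-0.27, limma adjusted p = 0.0786) were called lower, PNPLA2 was not called, and the sum was 220 to 409 in CONT and 189 to 304 in REST. The defining adipocyte markers PLIN1 and RETN were well above background on no array, LEP on 2 of each period, CIDEC on 4 of each and LIPE on 4 CONT and 5 REST arrays, and ADIPOQ and PLIN4 had no probe by this match.

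Of the myoepithelial list 2 of 7 tested genes were called lower, CNN1 (-0.53) and ACTA2 (-0.38), with a sum of 118 to 220 in CONT and 108 to 207 in REST. VWF (0.54, limma adjusted p = 0.00729) was the 1 of 7 endothelial genes called, with sums of 12.7 to 17.5 and 14.8 to 17.8, and CD3E (0.35) the 1 of 9 leukocyte genes, with sums of 21.0 to 30.3 and 25.8 to 33.3. Of 8 fibroblast genes 0 were called with the probe that stands for the gene, although 1 of 3 COL1A1 probes was called lower, with sums of 35.1 to 66.9 and 27.6 to 76.3. Of the erythrocyte list 0 of 2 were called, with sums of 13.9 to 20.3 and 10.4 to 20.7, and HBB was well above background on 2 CONT and 0 REST arrays. Of the skeletal muscle list CKM was called lower (-0.36), the other tested gene was not, and the sums were 2.05 to 3.73 and 1.72 to 2.94. Of the 11 markers called in these lists, VWF was the 1 that was also called without the cow as a block (limma adjusted p = 0.0538). KRT8, KRT7 and KRT18 then had limma adjusted p of 0.133, 0.171 and 0.508, CSN3 0.226, FABP4 0.194 and CIDEA 0.816. The part of these cell types in the changes of the desaturases and elongases was not tested.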

How the data were processed

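Total RNA of 12 mammary biopsies was hybridised to single-colour bovine oligonucleotide arrays. Per the file headers, the authors extracted spots with Agilent Feature Extraction 11.0.1.1, and the deposited intensity values used here are its background-subtracted processed signals on a linear scale. The deposited series table held the same intensities in all 45220 spots of each array, without the percentile shift of the study's methods, so that shift was computed here. The assembly behind the array annotation is older than that of the RefSeq table used for symbols, so no coordinates are given, and sequences were not used here.

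Spots marked as outliers by the scanner software (1 to 13 per array) were left out, repeat spots averaged, log2 taken and each array shifted by its 75th percentile (control spots aside). No spot was saturated (0 per array). The 2 periods were compared by limma 3.58.1 (lmFit, eBayes; R 4.3.3) with the cow as a fixed block, two-sided, and probes with a Benjamini-Hochberg adjusted p under 0.1 among all tested ones were called. The labels give the cow of each array. Deviations from the period means correlated across probes with r from 0.356 to 0.574 between the 2 arrays of a cow and from -0.33 to 0.134 between cows. The methods name no block, and the fit without it is an alternative. The probe of highest mean signal among the tested ones stood for a gene. Named were all members, at most 4 called genes per list by absolute change, listed genes needed to say what was not tested, and the 5 genes most like SCD. Members, lists and pairs were chosen with earlier results of these data known. The alternatives were other blocks, normalizations, filters, eBayes settings, an unpaired t-test without moderation (the methods' t-test; the methods name t-tests with a Benjamini-Hochberg correction, and the absence of pairing and of moderation was chosen here), each cow left out, and slide 3 left out, the last added after seeing the data. Normexp (offset 50) used the median spot signals, as mean spot signals were not used here. The fit was tested on simulated data with independent noise for each probe, so that test does not cover changes that differ by slide. Precision is limited by the number of arrays. Python 3.11.15, pandas 2.3.3 and matplotlib 3.10.9 were used.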

Additional observations from a re-analysis of the deposited data

Results flagged for a closer look

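Over the 38 sets of 6 arrays formed by the 19 tested probes and 2 periods, 3 had an array whose gap to its nearest neighbour was a larger part of the range than Dixon's critical value for 6 values; chance flags about 1 in 20 sets, or 1.9 here. For FADS2 (A_73_110505), cow 6 was the highest CONT array (-0.38, the others -1.12 to -0.92; ratio 0.73), and cow 2 the lowest REST array (-2.13, the others -1.58 to -1.30; ratio 0.666). These 2 cows had the largest FADS2 changes (-0.94 and -1.06), and the remaining 4 changed by -0.51 to -0.37. For ELOVL1 (A_73_P348286), cow 6 was the highest REST array (0.06, the others -0.83 to -0.52; ratio 0.652).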

How the results depend on the processing

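Of 368 comparisons of a member probe with an alternative, 314 kept the direction and side of the threshold, 41 kept the direction and lost the call, 10 gained it and 3 changed sign. The sign changes were those of uncalled probes: A_73_P035826 of SCD5 ran from -0.11 to 0.027 over the cows left out, above 0 without cow 2 (0.016) or cow 4, and A_73_P260766 of ELOVL7 gave -0.085 with normexp. Calls over all probes, in member probes and in member genes lower were 3106, 11 and 4. Without the replicate block they were 840, 6 and 3, with the methods' t-test 722, 4 and 2 (3196 and 13 probes at an unadjusted p under 0.05), and with all 43653 probes tested 386, 3 and 1, the 3 being HSD17B12 probes, among them A_73_P252711, which the filter had left out. With the slide as the block they were 1901, 10 and 3. Leaving out each cow gave 1052 (cow 2) to 3286 (cow 5), 5 (cow 2) to 13 (cow 6) and 3 to 4; without cow 1 or 4, all probes fell to 1536 and 1197 and member probes to 7. Without slide 3 they were 3208, 15 and 4, with 1 member gene (ELOVL7) called higher; this number was 0 under all other settings, each cow left out included (0 to 0). With 1 cow fewer, SCD minus SCD5 ran from -0.35 to -0.27 and ELOVL1 minus ELOVL7 from -0.70 to -0.29. With the mean over probes they were -0.51 (exact sign-flip test adjusted p = 0.125) and -0.54 (0.156), and with normexp -0.24 (0.188) and -0.26 (0.406). The call was lost in 111 of 361 comparisons for the called genes of the related lists, in 88 of 209 for the called cell type markers and in 7 of 95 for the 5 genes most like SCD, and the sign changed in 0. Causes were not tested. On the dimmer slide 3, the best ELOVL6 probe and A_73_P252711 of HSD17B12 were well above background on 0 of 4 arrays.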
